A study of Mus musculus with 28 samples.

Results

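A set of 10 genes of hepatic ammonia disposal were followed across the liver lobule. They are the urea cycle genes Cps1, Otc, Ass1, Asl, Arg1 and Nags, the glutaminase gene Gls2, the glutamine synthetase gene Glul, the ammonium transporter gene Rhbg and the ornithine aminotransferase gene Oat. They were chosen by name for their place in the pathway, and all 10 were found among the 33856 gene symbols of the table of hepatocyte pairs. The livers came from C57BL/6 males that were kept on a reversed light cycle, fasted for 2 hours and perfused with collagenase under ketamine and xylazine. Each pair was a hepatocyte sorted together with an attached CD31+ cell, from 17 libraries of 3 mice aged 6 or 7 weeks. Single non-parenchymal cells, from 11 libraries of 2 mice aged 3 and 4 months, served to show what cells other than hepatocytes hold of each gene. No group carried a transgene or a drug treatment beyond the anaesthetic. RNA was counted by MARS-seq, a plate-based 3′-end method in which unique molecular identifiers (UMIs) count the captured mRNA molecules.

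The liver clears ammonia along the path of the blood, from the portal vein to the central vein. In hepatocytes near the portal vein, ammonia released partly by glutaminase enters carbamoyl phosphate and then the urea cycle. A narrow rim of hepatocytes around the central vein lacks most of this pathway and binds the ammonia that remains into glutamine. Glul is the classic marker of that rim and a target of Wnt/beta-catenin signalling, whose TCF/LEF factors bind DNA near their target genes.

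Promoter sequences were matched for 5 of the 10 members (Ass1, Glul, Nags, Oat and Otc) in RefSeq, build GRCm38.p6, which is not the build of the counts. Those of Glul and Oat, 2 members that were higher at the central end, and that of Otc, a urea cycle gene with a shallow portal slope, are shown as the 250 bases before the RefSeq start, 5′ to 3′ on the gene's own strand. Capitals mark CCAAT or its reverse complement ATTGG, a motif chosen after the sequences were read.
Glul, chr1:153899679-153899928, plus strand: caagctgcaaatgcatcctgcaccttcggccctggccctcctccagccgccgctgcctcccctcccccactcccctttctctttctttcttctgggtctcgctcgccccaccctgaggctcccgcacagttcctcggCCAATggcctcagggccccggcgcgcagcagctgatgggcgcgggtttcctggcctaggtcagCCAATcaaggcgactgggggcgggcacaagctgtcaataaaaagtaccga
Oat, chr7:132576399-132576648, minus strand: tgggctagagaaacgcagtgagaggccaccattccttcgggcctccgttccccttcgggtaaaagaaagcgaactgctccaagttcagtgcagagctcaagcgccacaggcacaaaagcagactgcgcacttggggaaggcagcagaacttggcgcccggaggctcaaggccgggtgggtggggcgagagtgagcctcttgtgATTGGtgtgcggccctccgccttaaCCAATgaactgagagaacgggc
Otc, chrX:10252055-10252304, plus strand: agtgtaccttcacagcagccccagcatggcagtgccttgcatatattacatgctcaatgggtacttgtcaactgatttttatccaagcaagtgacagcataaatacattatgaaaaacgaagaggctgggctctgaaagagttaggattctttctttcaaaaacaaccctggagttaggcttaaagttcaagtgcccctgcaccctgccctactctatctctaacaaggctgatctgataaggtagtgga
The windows before Glul and Oat each held 2 matches to CCAAT on either strand, and the one before Otc held 0. Of 32851 windows of the same length in the table, 33.9% held at least 1 such match and 10.1% held at least 2. The TCF/LEF core CTTTGA (reverse complement TCAAAG) was found in 13.8% of all windows. Among the 5 members it had 1 match, which lay 203 bases before the start of Nags. The 250 bases were 64.8% G or C before Glul, 60% before Oat and 43.6% before Otc, against a median of 52.4% over all windows.

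The pair table held 4621 wells and 56976156 UMIs of genes, with a median of 10450 UMIs per well (2423 to 49311). Levels are given as UMIs per 1000000 gene UMIs (CPM). No source says which library or mouse a well came from, so the table is 1 sample. Intervals are 95% intervals of counting error only, and no difference between mice could be tested. Pairs were ordered from central to portal by genes outside the set, Cyp2e1 and Cyp2c29 against Cyp2f2 and Hal, and cut into 9 layers of equal numbers of pairs, with layer 1 the most central. That placed 4582 pairs and left out 39. At the central end the 4 genes could not order the pairs fully, since 1232 pairs (26.9%) had no UMI of Cyp2f2 or Hal and shared the top score. These were ordered by the share of their UMIs that came from Cyp2e1 and Cyp2c29, an order chosen after the ties were seen. A second placement used 15 genes, with no pair at the top score, and is given beside the first. It leaves out 75 pairs in 2 plate-sized blocks of well numbers, 1 and 2. Their levels of Pck1, one of the portal placing genes, were 311 and 682 CPM, against 3571 to 4745 in the 15 other blocks. The numbers of the 17 blocks are also the numbers in the names of the 17 libraries, and the libraries numbered 1 and 2 are both from the mouse aged 6 weeks. No source says that a block is a library. If it is, the second placement leaves out every pair of 1 of the 3 mice. Every count over the 15 other blocks would then rest on the mice aged 7 weeks alone. Endothelial markers summed to between 548 and 705 CPM over the 9 layers of the second placement. Cholangiocyte markers rose from 1.41 in its most central to 21.9 in its most portal layer, with Krt19 and Krt7 at 0. Plasma cell markers summed to 84.25 and 164.2 CPM in the same layers, with none of the 4 at 0, but 2 of the 4 were higher centrally. Hepatocyte markers rose from 75139 to 141578, with 1 of 6 higher centrally. The part of other cells or of the hepatocyte RNA content in the members' gradients was not tested, except for the endothelial estimate given with the single cells.

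Of the 6 urea cycle genes, 5 were higher at the portal end, and Gls2 had the steepest portal slope of the 10. Glul, Rhbg and Oat were higher at the central end, and Nags differed least between the ends. With pairs placed by 4 genes, 4 of 10 members (Ass1, Asl, Arg1 and Gls2) were at least 2-fold higher in the most portal than in the most central layer, where 2.57% of 9706 genes were. At least 2-fold higher in the most central layer were 3 of 10 members, against 4.28% of all genes. Placing by 15 genes added Cps1 to the portal side, giving 5 of 10 members against 2.97% of 9612 genes. On the central side the same placement gave 3 of 10 members against 4.95%. Over all genes the median log2 ratio of the most central over the most portal layer was 0.12 in both placements. With blocks 1 and 2 kept in, the 15-gene log2 ratios were -1.002 for Cps1, -0.72 for Otc, -1.29 for Asl and -1.77 for Arg1. Glul was then at 4.30 and Oat at 6.67, and Cps1 was only just past 2-fold. The portal count was 2 of 10 when tied pairs were put in random order, with Ass1 at -0.94 and Arg1 at -0.81 then below 2-fold, so the 4-gene count rests on the order of the ties. Levels taken as UMIs per pair, with no scaling, moved the median of all genes to -0.17. On that scale 5.09% of all genes were 2-fold higher portally and 2.47% centrally, with 5 and 3 members.

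**Figure D1:**
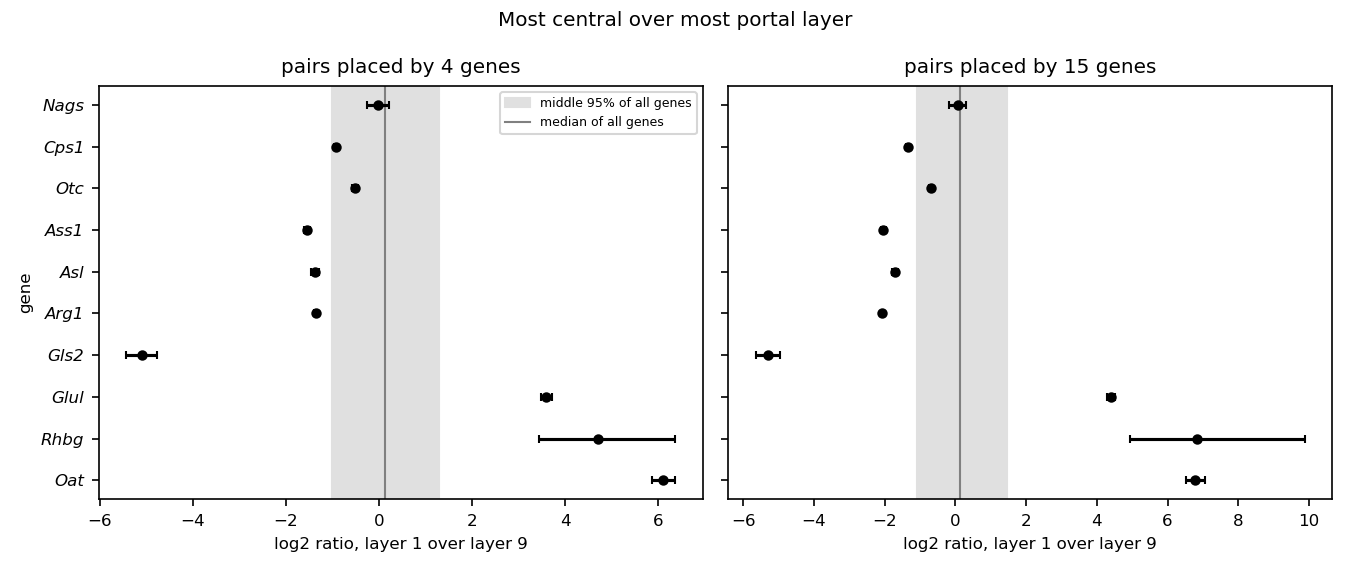
Log2 ratio of the most central over the most portal layer for each member, with pairs placed by 4 genes (left) or 15 genes (right). Points are ratios of CPM values with 95% counting intervals, the grey band holds the middle 95% of all genes and the line is their median. Gls2 lies far to the left, Glul, Rhbg and Oat far to the right, and Nags at about 0.

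Nags makes N-acetylglutamate, the activator without which carbamoyl phosphate synthetase does not work. Its level was 46.6 CPM in the most central and 44.6 in the most portal of the layers placed by 15 genes, and between 41.8 and 49.5 in all 9. The log2 ratio of the outer layers was 0.06, with an interval from -0.18 to 0.31. Placement by 4 genes gave -0.02 (-0.26 to 0.22). Other settings moved Nags to either side, to 0.28 (0.05 to 0.51) by 15 genes with all blocks, 0.25 (0.02 to 0.49) with those layers taken within each block, and -0.32 (-0.56 to -0.08) as UMIs per pair by 4 genes. Within 15 plate-sized blocks of wells, each cut into a central, a middle and a portal tercile (3 equal groups of pairs), the central tercile was higher in 10 and the portal tercile in 5. Nags thus had the log2 ratio nearest to 0 of the 10 members in both placements, from 264 and 286 UMIs in the outer layers of the second, and its direction depended on the setting.

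Cps1, which makes carbamoyl phosphate from ammonia in the mitochondrion, climbed steeply over the central layers by 15 genes and then levelled off. From layer 1 to layer 9 of the 15-gene placement it measured 615.5, 1025, 1230, 1311, 1427, 1527, 1576, 1611 and 1568 CPM. By 15 genes most of the climb thus lay within the 4 most central layers. By 4 genes, layers 1 to 4 held 864, 1177, 1076 and 1232 CPM and layer 9 held 1635, so that shape depended on the placement. The outer layers differed 2.55-fold (log2 ratio -1.35, interval -1.41 to -1.29), and 1.89-fold when 4 genes placed the pairs. Its portal tercile was the higher in 15 of 15 blocks.

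Otc, which joins carbamoyl phosphate to ornithine, had the shallowest slope of the urea cycle enzymes that were higher portally. It measured 612.9, 745.3, 814.7, 813.7, 887.6, 925.3, 941, 956.3 and 991.4 CPM from layer 1 to layer 9. The outer layers differed 1.62-fold (log2 ratio -0.69, interval -0.75 to -0.63) and 1.43-fold by 4 genes. Its direction was the same in 15 of 15 blocks, although the difference was below 2-fold in both placements. By 4 genes, with all 17 blocks kept, Otc was higher portally in 16. It was higher centrally in block 1, which held 8 pairs. Cps1, Asl and Arg1 had the same 4-gene counts.

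The 3 cytosolic enzymes had larger gradients. Arg1, the arginase that releases urea, measured 612.9 CPM in layer 1, 1321 in layer 2, 2191 in layer 5 and 2566 in layer 9. Its outer layers differed 4.19-fold (log2 ratio -2.07, interval -2.12 to -2.01), and 2.57-fold by 4 genes. Asl, which splits argininosuccinate into arginine and fumarate, rose at every step by 15 genes, from 231.4 in layer 1 to 488.7 in layer 5 and 751.6 in layer 9. That is a 3.25-fold difference (log2 ratio -1.70, interval -1.79 to -1.61), and 2.6-fold by 4 genes. Asl thus kept climbing over the portal layers, where Arg1 and Cps1 changed little. By 4 genes Asl did not rise at every step, with 407 CPM in layer 2 and 382.4 in layer 3. Both Arg1 and Asl were higher in the portal tercile of 15 of 15 blocks.

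Ass1, which joins citrulline to aspartate, rose from 310.5 CPM in layer 1 to 993.2 in layer 5 and 1279 in layer 9, a 4.12-fold difference (log2 ratio -2.04, interval -2.12 to -1.97). By 4 genes it was 2.94-fold. Its level also differed between blocks of wells, more than that of any other urea cycle enzyme. In the portal tercile the 15 blocks ranged from 603.5 CPM in block 12 to 2015 in block 3, with a median of 1010, which is a 3.34-fold range. The same range was 1.23-fold for Cps1, 1.36-fold for Otc, 1.36-fold for Asl and 1.2-fold for Arg1. Among 1227 genes with at least 100 CPM there, the median range was 1.6-fold and 52 genes had a larger range than Ass1. Blocks 10 to 13 had the least Ass1 over all their pairs (456.1 to 549.1 CPM) and put 15.7 to 23.8% of their pairs in the most central layer by 4 genes, against 3.38 to 16% in the other blocks of the second placement. With layers taken within each block, the log2 ratio of Ass1 was -1.07 by 4 genes, against -1.56 pooled. By 15 genes it was -1.42 within the blocks, against -2.04 pooled, over the same pairs. With blocks 1 and 2 kept in, the pair of values was -1.43 and -1.48. Ass1 was still the lower in the central tercile of 15 of 15 blocks. No source ties blocks to mice, and whether they differ by mouse or by library was not tested. The uneven share of the blocks in the most central layer applies to every member. By 4 genes, layers taken within each block gave log2 ratios of -0.82 for Cps1 and -1.24 for Arg1, against -0.92 and -1.36 pooled. Glul was then at 3.17 against 3.59, and Rhbg at 4.76 against 4.71. Ass1 also has pseudogene copies in the table, Gm5424 (12.7 CPM in the most central and 39.6 in the most portal layer) and Gm7336 (20.7 and 56.8), and reads could be split among them. Over all pairs of a block, Gm5424 was at 31.4 CPM in block 3, where Ass1 was at 1631. In blocks 10 to 13 Gm5424 was at 30.2 to 33.8. A part of the copies in the block differences was not tested.

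**Figure D2:**
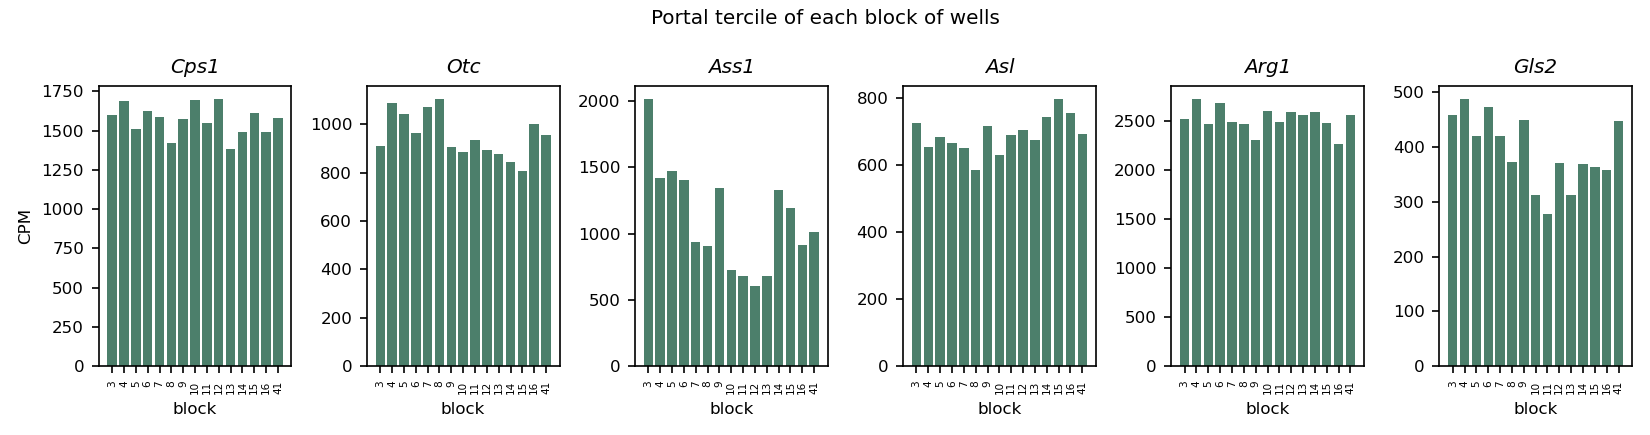
Level of each urea cycle enzyme and of Gls2 in the portal tercile of each of 15 blocks of wells, in CPM, with 1 bar per block and axes from 0. Ass1 ranges from 603.5 to 2015, while Cps1 and Arg1 differ by no more than 1.23-fold between blocks.

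Gls2, the liver glutaminase that frees ammonia from glutamine, had a profile unlike those of the urea cycle enzymes. It measured 12.5, 19, 34.7, 63.8, 107.6, 196.9, 314.3, 406.7 and 491.7 CPM from layer 1 to layer 9. The outer layers held 71 and 3150 UMIs, a 39.2-fold difference (log2 ratio -5.29, interval -5.65 to -4.95), and 34.1-fold by 4 genes. With blocks 1 and 2 kept in, the 15-gene log2 ratio was -4.42 (-4.67 to -4.17). Where Cps1 changed little over the portal layers, Gls2 went on rising up to layer 9. In the blocks the portal tercile was higher in 15 of 15, with log2 ratios from -5.65 to -3.16. The exons of Gls2 overlap those of Spryd4 on the opposite strand, and whether reads were counted by strand is not given in the sources used here. Spryd4 itself was at 21.7 and 24.8 CPM in the outer layers. Exons of Glul, Rhbg and Nags overlap opposite-strand genes in the same way (Teddm2, Gm38392 and Gm11586), of which the table lists Gm11586, with 6 UMIs.

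**Figure D3:**
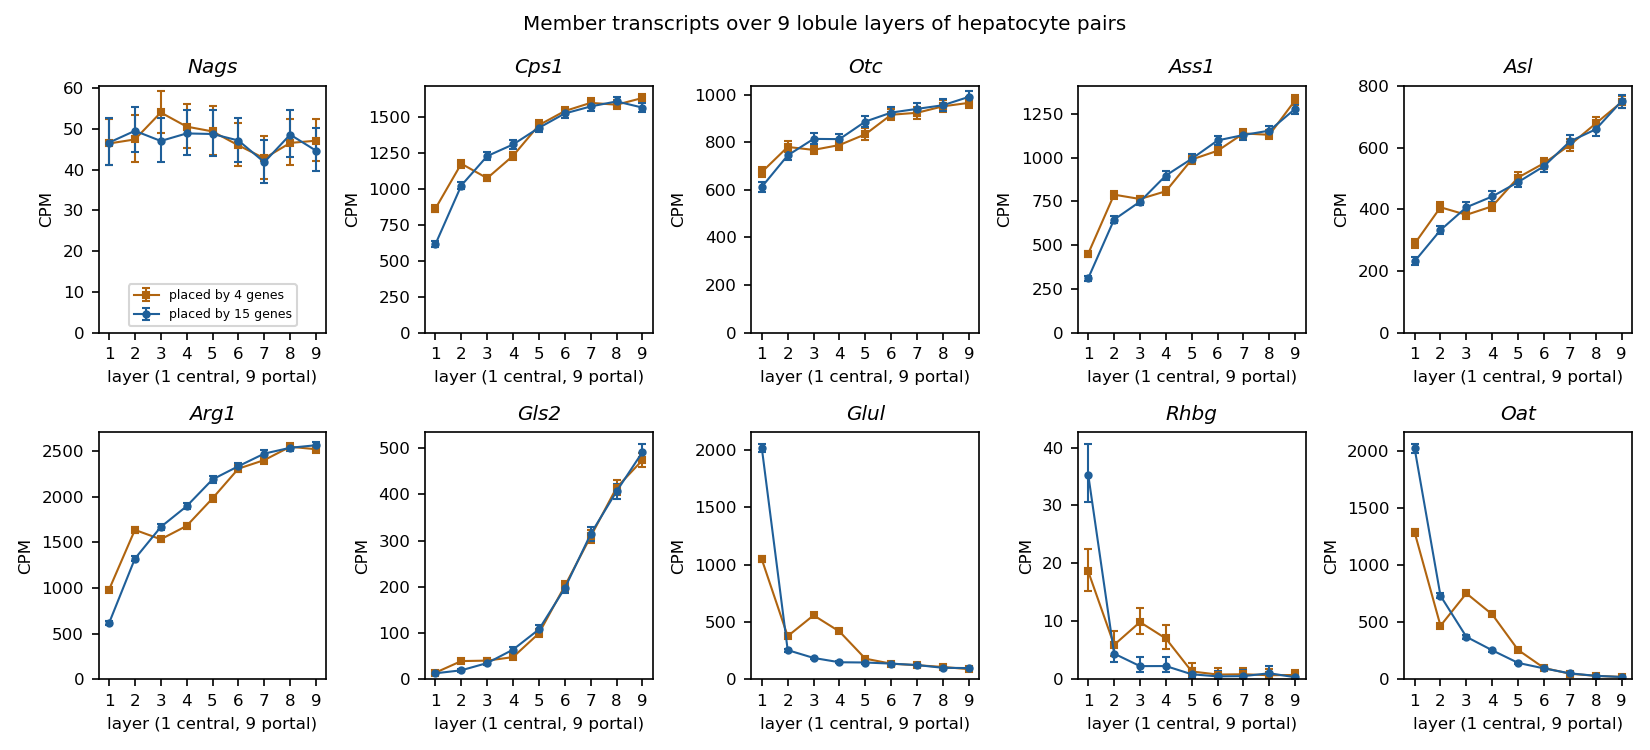
CPM of each member in 9 layers of pairs, from layer 1 (most central) to layer 9 (most portal), placed by 4 genes (squares) or 15 genes (circles), with 95% counting intervals and axes from 0. By 15 genes, Glul falls from 2019 to 253.2 between layers 1 and 2, whereas Oat falls over several layers and Gls2 rises over the portal layers. The 4-gene line is uneven over layers 1 to 3, whose pairs largely share the top score.

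Glul, which makes glutamine from glutamate and ammonia, was highest in the most central layer. It measured 2019, 253.2, 184.8, 147, 144.9, 135.1, 122.6, 98.5 and 96.2 CPM from layer 1 to layer 9 of the 15-gene placement. The outer layers held 11429 and 616 UMIs, a 21-fold difference (log2 ratio 4.39, interval 4.27 to 4.51), and 12.1-fold by 4 genes. Glul was also uneven among the most central pairs. When the pairs were cut into 27 equal parts, the 3 most central, of 169 pairs each, held 4516, 1233 and 687.1 CPM, and the next held 272.1. After each pair was thinned to 2000 UMIs, the variance of Glul was 14.1 times its mean in layer 1 and 1.01 times in layer 9. Glul counts thus varied beyond counting error between pairs of the most central layer. Across the blocks the central tercile ranged from 135.7 to 2203 CPM and the portal tercile from 67.2 to 184.4, with the central tercile higher in 15 of 15.

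Oat, which turns surplus ornithine into a precursor of glutamate, fell more gradually than Glul. From layer 1 to layer 9 it measured 2022, 729.7, 370.3, 252.3, 141.7, 93.5, 50.5, 28.4 and 18.4 CPM. Its outer layers held 11449 and 118 UMIs, a 109.8-fold difference (log2 ratio 6.78, interval 6.52 to 7.05), and 69.2-fold by 4 genes. Every block had more Oat in its central tercile (461.3 to 2342 CPM) than any block had in its portal tercile (13 to 93.8). By 15 genes the fall of Oat thus went on over all 9 layers, where that of Glul was mostly over by layer 2. The 4-gene placement did not show this, with Glul at 1046, 375.2, 557.4, 415.9 and 178.4 CPM in layers 1 to 5 and Oat at 467.3 in layer 2 and 751.4 in layer 3.

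Rhbg encodes a membrane transporter of ammonium. It was scarce, with 292 UMIs over all kept pairs. By 15 genes, layer 1 held 200 UMIs and layer 9 held 2. Levels were 35.3 CPM in layer 1, 4.4 in layer 2 and between 0.31 and 2.25 in the other 7 layers. The log2 ratio of the outer layers was 6.82 with an interval from 4.95 to 9.88, and 4.71 (3.45 to 6.36) by 4 genes. With blocks 1 and 2 kept in, the 15-gene value was 6.21 (4.65 to 8.50). All 8 blocks with at least 10 Rhbg UMIs had more in the central tercile. By 15 genes most Rhbg UMIs were thus in layer 1, as were those of Glul. By 4 genes layer 1 held 107 of 292 Rhbg UMIs and 6016 of 19153 Glul UMIs.

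Within that most central layer, the pairs rich in Glul held less Cps1 and Arg1 than the pairs poor in Glul. The layer's 505 pairs were split into terciles by their own Glul level, whose medians were 2837, 338.9 and 75.5 CPM, and 72 pairs of the lowest tercile had no Glul UMI. Cps1 was at 191.6 CPM in the tercile with the most Glul (172.9 to 211.8), 676.9 in the middle tercile and 1063 in the tercile with the least (1013 to 1114). Arg1 was at 186.1 (167.6 to 206), 683.2 and 1052 (1003 to 1104). Between the outer terciles of this 1 layer Cps1 thus differed 5.55-fold and Arg1 5.66-fold.

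The remaining urea cycle enzymes differed less between the terciles. Ass1 was at 144.1 and 449.9 CPM in the terciles with the most and the least Glul, Asl at 160.1 and 311.1, and Otc at 487.2 and 714.5. Nags was at 55.5 and 37.8, in the opposite direction, with a log2 ratio of 0.55 whose interval ran from 0.09 to 1.03. Oat was at 3704 and 785.1, Rhbg at 81.5 and 4.34, and the glutamate transporter gene Slc1a2 at 1243 and 39.7. The terciles differed in more than Glul, with median scores of 0.849 and 0.805 on a scale from 0 (portal) to 1 (central) and median depths of 11172 and 8576 UMIs per pair. Albumin was at 30068 and 46753. Over the 3 most central of the 27 equal parts, from the centre outward, Cps1 was at 385.9, 641 and 795.3 CPM. Arg1 was at 359, 621.1 and 831.1 there. How far position within the layer accounts for the differences between the terciles was not tested.

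The contrast was also seen block by block. In 9 blocks with 30 to 79 pairs in the layer, the pairs were split at the block's median Glul level. Cps1, Arg1, Asl and Otc were lower in the pairs with more Glul in 9 of 9 blocks, and Ass1 in 8 of 9. Oat, Rhbg and Slc1a2 were higher in those pairs in 9 of 9. Nags was higher in 5 and lower in 4, and Gls2 was higher in 2 and lower in 7. Cps1 ranged from 171.4 to 551.2 CPM in the Glul-richer pairs of the blocks and from 717.3 to 1187 in the others, without overlap. The ranges of Arg1 overlapped, at 155.7 to 795.2 and 749.2 to 1169, as did those of Otc, Asl and Ass1. Counts over all genes were not made for this split. Albumin, which is not a urea cycle gene, was also lower in the tercile with the most Glul than in that with the least. It was at 30068 against 46753 CPM, and Otc at 487.2 against 714.5. The count for Otc is therefore not read as particular to the urea cycle.

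**Figure D4:**
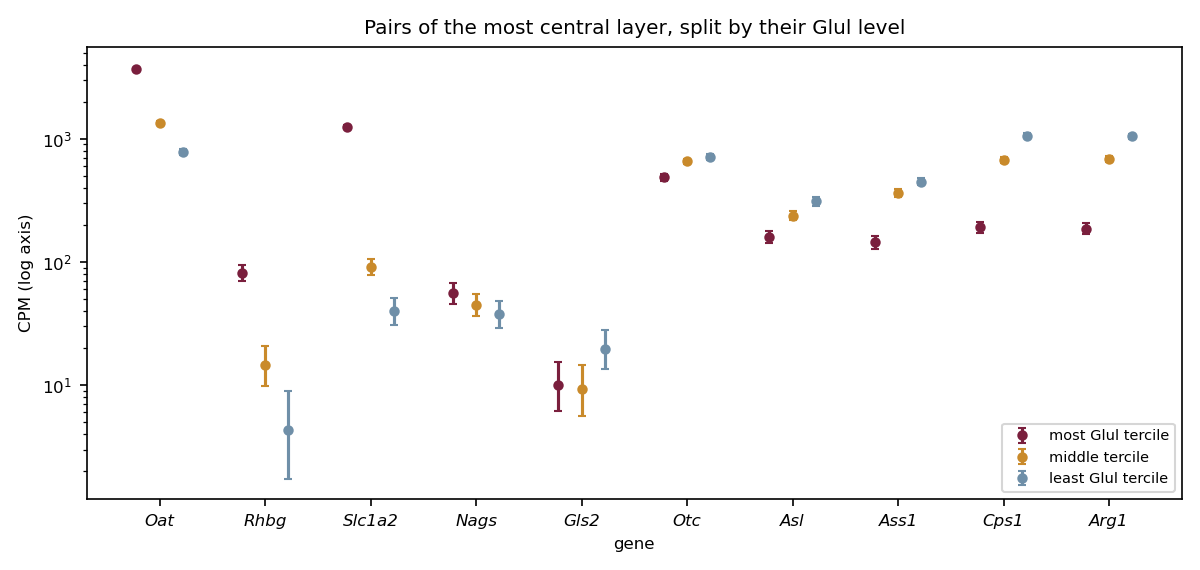
Levels in the 505 pairs of the most central layer (15 genes), split into terciles by Glul level, in CPM on a log axis with 95% counting intervals. Oat, Rhbg and Slc1a2 are highest in the tercile with the most Glul, and Cps1 and Arg1 are lowest there, at 191.6 and 186.1.

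By 15 genes, the layer profile most like that of Glul, among 6974 genes with at least 500 UMIs, was that of Oat, with a root mean square difference of 0.479 between profiles divided by their means. The likeness is loose compared with that of other members to their nearest gene. Ass1 and Arg1 were each other's nearest gene, at 0.0392. Cps1 was nearest to the complement gene C9 (0.034), Otc to vitronectin, Vtn (0.0242), and Nags to Lpgat1 (0.0196). Asl was nearest to Slc7a2 (0.0426), a carrier of arginine and other cationic amino acids. Gls2 was nearest to Nipal1 (0.114) and Oat to the urinary protein gene Mup17 (0.159). The nearest genes depended on the placement. By 4 genes, Cps1 and Asl had the same nearest gene as by 15. Glul was then nearest to Serpina7 and next to Oat, Ass1 to its copy Gm5424, Arg1 to C9, Otc to Slc25a47, Nags to Bhmt2, Gls2 to Hsd17b13 and Oat to Cyp2c38. Rhbg had too few UMIs to be compared. All profiles come from the same pairs and share their depth.

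Genes that supply or surround the pathway were read from lists whose median log2 ratios ran from -0.26 to 0.18 over both placements, against 0.12 for all genes. Past 2-fold were 2.57% of all genes portally and 4.28% centrally by 4 genes, and 2.97% and 4.95% by 15 genes. Of 5 measured urea cycle helpers, 1 was 2-fold higher centrally by 15 genes and 0 portally, with a median log2 ratio of 0.09. That gene was Car5a, the mitochondrial carbonic anhydrase that provides bicarbonate to Cps1, at 111.3 CPM in the most central and 36.4 in the most portal layer (log2 ratio 1.61). The ornithine carrier gene Slc25a15 was level, at 278.2 and 261.3.

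Of 17 measured genes of ammonia release and glutamate turnover, 5 were 2-fold higher portally and 2 centrally by 4 genes, with a median of -0.01. Serine dehydratase, Sds, which frees ammonia from serine, was at 7.82 CPM in the most central and 653.1 in the most portal layer, and its relative Sdsl was at 0.7 and 26. Gldc of the glycine cleavage system was at 6.26 and 108.7. Prodh, which starts proline breakdown, ran the other way, at 223.2 and 88.96. Glud1, glutamate dehydrogenase, was at 1042 and 849.7, a log2 ratio of 0.29, and so was far flatter than Gls2 or Glul.

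The transporters were split. Of 8 measured by 15 genes, 2 were 2-fold higher centrally and 2 portally, with a median of -0.08. Slc1a2, which takes up glutamate, was at 483.4 CPM in layer 1 and 2.5 in layer 9 (log2 ratio 7.60), above the value of every member, although the interval of Rhbg reaches higher. Aqp9, a channel for glycerol and urea, was at 417.7 and 96.6. Slc7a2 was at 235.4 and 629.2, and the glutamine carrier gene Slc38a3 at 1125 and 1517. The water channel gene Aqp8 was at 9.18 and 28.9.

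Of 7 genes of the ornithine, arginine and proline branch that were measured by 15 genes, 0 were 2-fold higher in either direction, and the median was -0.09. All 6 glutamine users were also below 2-fold, with a median of -0.26. Of them, 5 of 6 were on the portal side by 15 genes and 4 of 6 by 4 genes. The intervals of most of the 6 included 0, and the share of all genes on the portal side was not counted. Of 7 known regulators of urea cycle genes, 1 was 2-fold higher portally. That was Ppargc1a, a transcriptional coactivator of the fasting response, at 7.77 and 33.9 CPM (log2 ratio -2.12). The transcription factor genes Hnf4a (475.3 and 532.8) and Cebpa (54.9 and 66.5) were nearly level, and Cebpb was at 503.2 and 335.

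Among single non-parenchymal cells, Glul was highest in 2 classes, Kupffer-like and endothelial-like cells. The table had 3720 wells, of which 2692 had at least 300 UMIs and were kept, with a median of 710 UMIs. Clusters were named from fixed markers, and since they were made from the same cells, the levels of Glul are a description. Glul was at 1072 CPM in 254 Kupffer-like cells (960.2 to 1193) and at 1004 in 853 endothelial-like cells (924.5 to 1088). It was at 455.1 in 29 monocyte or macrophage-like cells, 131 in B cell-like, 93.6 in dendritic cell-like and 71.5 in NK cell-like cells. The B cell-like, NK cell-like and dendritic cell-like classes thus stood far below the Kupffer-like and endothelial-like cells. In all, 917 cells of 4 clusters stayed unnamed, with Glul at 167.3 CPM. Among them, a cluster of 336 cells had T cell markers in its summed UMIs but was led by the mast cell genes Cpa3 and Tpsb2. A cluster of 509 cells also had T cell markers in its summed UMIs. It was led by Cd160, Xcl1 and Klrc1, genes known from NK cells.

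**Figure D5:**
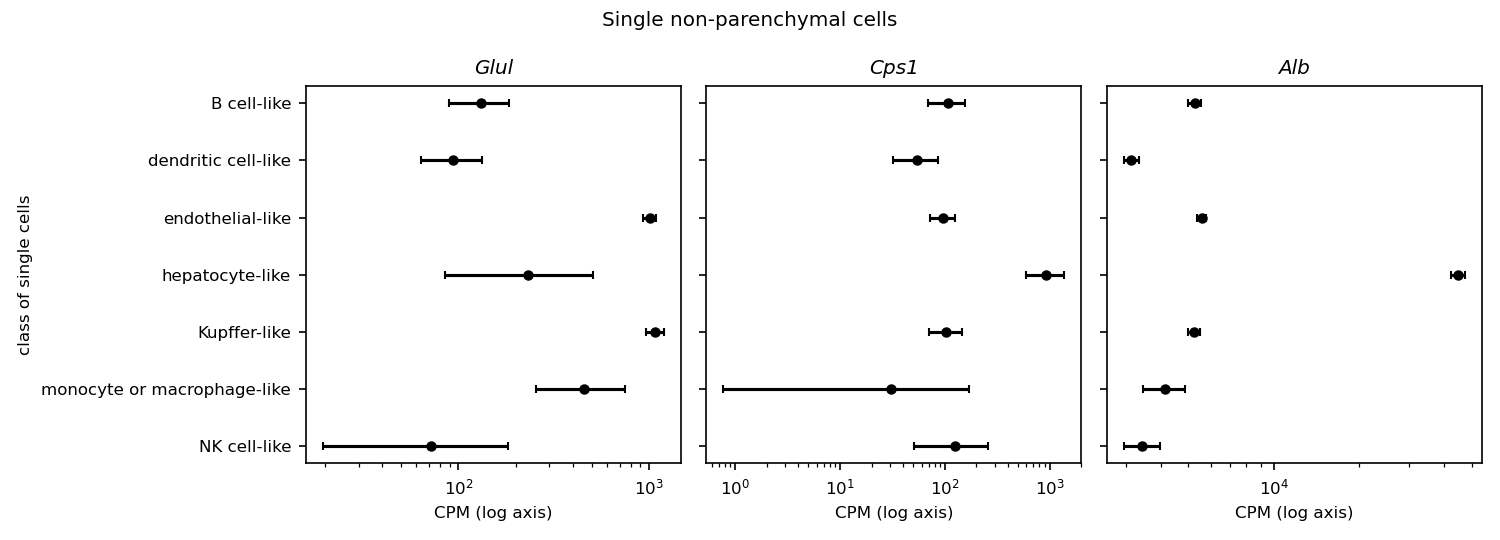
Glul, Cps1 and albumin (Alb) in named classes of single non-parenchymal cells, in CPM on log axes with 95% counting intervals. Glul stands at 1004 in endothelial-like and 1072 in Kupffer-like cells, while Cps1 is near 100 in most classes and highest in the 35 hepatocyte-like cells, as is albumin.

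Albumin, the most abundant hepatocyte transcript, was also counted in these wells. It stood at 4612 CPM over all kept wells and at 3147 to 5574 in the named classes other than hepatocyte-like. Cps1 was at 20.1 UMIs per 1000 albumin UMIs in the single cells and at 21.1 in the pairs, and Arg1 at 20.5 and 30.6. Ass1 was at 31.9 and 14.7, Asl at 19.97 and 7.98, and Otc at 5.98 and 13.2, so the urea cycle enzymes did not keep 1 common ratio. Glul was at 102.1 per 1000 albumin UMIs in the single cells and at 5.26 in the pairs. For Cps1 the ratio was thus close to that of the pairs, and of these 6 genes Glul had the largest excess over the pairs. In 35 hepatocyte-like cells, Cps1 was at 932.4 CPM and Glul at 233.1 (85.5 to 507.4).

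The endothelial cell of each pair adds its own RNA to these values. The level of each of 12 endothelial markers in pairs was set against its level in endothelial-like cells, and the median share was 2.36% (1.93 to 14.1%). At that share, endothelial RNA would come to 23.7 CPM of Glul, which is 27.3% of the lowest layer level by 4 genes (86.5). For Oat the same estimate was 6.87% of its lowest layer level, for Gls2 3.15% and for the urea cycle enzymes Cps1, Otc, Ass1, Asl and Arg1 between 0.083 and 1.02%. These estimates grow in proportion to the share, and at the highest of the 12 shares that of Glul would exceed its lowest layer level. They also carry any difference between the ages of the mice. The levels of the endothelial-like cells were used as counted, and albumin was at 5574 CPM there. Cps1 was at 17.3 UMIs per 1000 albumin UMIs in those cells, against 21.1 in the pairs. Any stray hepatocyte RNA in those wells is counted as endothelial in these estimates, and its part was not tested.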

How the data were processed

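Per the labels' protocols, libraries were made with MARS-seq. The deposited values are raw UMI counts for each gene symbol in each well, with no sign of normalization by the authors. Per the submitters' processing notes, bcl2fastq 2.15.0.4 was used and the genome build was mm9. No aligner or gene annotation is named in those notes or labels. Spike-in RNA (0.715% of UMIs in pairs, 52.8% in single cells) was left out.

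Pairs needed at least 1000 gene UMIs and 10 UMIs of the placing genes. The score set central against portal UMIs, each divided by its mean over pairs. The 15 genes were Cyp2e1, Cyp2c29, Cyp1a2, Cyp2c37, Cyp2c50, Gulo and Rgn against Cyp2f2, Hal, Hsd17b13, Sds, Ctsc, Pck1, Aldh1b1 and Hsd17b6. UMIs were summed per layer and scaled to 1000000 gene UMIs (CPM). Levels have exact Poisson and ratios exact conditional binomial 95% intervals. Genes needed 30 UMIs over both outer layers. With 1 sample and no map of wells to mice, the edgeR fit foreseen for mapped wells was not run and no p-value is given. Blocks are 384 consecutive well numbers (17 blocks). Leaving out blocks 1 and 2 was chosen after seeing the data, as were the split by Glul and the comparison of blocks.

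Single cells needed 300 UMIs and were clustered with scanpy 1.11.5 (Leiden, resolution 1.0, 15 neighbours, 30 components, 2000 variable genes). A name needed at least 3 markers 2-fold higher and leading genes that did not go against it. Gene overlaps are from GENCODE M21 (GRCm38). No doublet caller was run on these plate-sorted wells. Intervals and ratios were tested on simulated Poisson counts, which do not carry the extra spread between real pairs.

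All 10 members are named. Other genes come from fixed lists, up to 4 per list by size of ratio and others for their role, and from the nearest layer profiles. Slc1a2 and Alb beside the Glul split were chosen after seeing values. The members and lists were chosen with earlier results of these data known.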

Additional observations from a re-analysis of the deposited data

How the results depend on the processing

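Over 36 alternatives of placement, layer number, scaling, filters, thinning and blocks, 9 of 10 members kept the direction of their log2 ratio, and Nags, whose ratio was -0.02, kept it in 20, with values from -0.32 to 0.29. Ranges were -1.35 to -0.62 for Cps1, -0.81 to -0.33 for Otc, -2.06 to -0.94 for Ass1, -1.70 to -1.0 for Asl, -2.07 to -0.81 for Arg1, 2.43 to 4.39 for Glul, -5.39 to -3.66 for Gls2, 3.65 to 6.82 for Rhbg and 5.30 to 6.78 for Oat. For Cps1, Asl, Arg1, Glul, Rhbg and Oat, the value furthest from 0 came from the 15-gene placement without blocks 1 and 2. The count of 3 central members was the same in all alternatives. The portal count was 4 or 5 except with tied pairs in random order, where it was 2, since pairs with the same score then fell into layer 1 by chance. Leaving out each block in turn gave 4 and 3 throughout. The background shares were 1.57% portal and 3.71% central with at least 300 UMIs per gene and 10.1% and 13.9% with at least 1. A limit of 500 UMIs for single cells moved Cps1 beyond its interval, to 75.7 CPM, and Glul to 461.8 from 471. No paired analysis was possible because the mouse of each well is not given. Depth limits Rhbg most, with 2 to 5 UMIs in the most portal layer.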
